A study of Mus musculus with 7 samples.

Results

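The genes described here are 9 mouse genes of histone H3 lysine 9 (H3K9) methylation and the heterochromatin that HP1 proteins build on it, chosen by name from the 21928 genes of the series. They are the HP1 genes *Cbx1* and *Cbx5*, the corepressor gene *Trim28*, the methyltransferase genes *Setdb1*, *Suv39h1*, *Suv39h2*, *Ehmt1* and *Ehmt2*, and *Atf7ip*, whose product is the partner of SETDB1. Their transcripts were compared between testes of 4 wild-type pups and 3 *Meioc*-null pups of strain C57BL/6N, to ask how the loss of *Meioc* changes their abundance as germ cells come to meiosis. The null pups carried the constitutive null allele tm1.1Dpc of *Meioc*, which encodes a germ-cell factor that acts with an RNA helicase on mRNA. Pups of both genotypes were given daily WIN18446 (0.1 mg/g), which blocks the making of retinoic acid, on postnatal days 2 to 8, and then retinoic acid (0.0125 mg/g) on day 9. Testes were taken 6.75 days after the retinoic acid, when the synchronized germ cells are enriched for the preleptotene stage, and each library was made from 1.5 testes of 1 pup. The libraries hold RNA of whole testes, so fewer cells of a type and less RNA per cell cannot be told apart.

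Levels are given as CPM (counts scaled to a common library size) adjusted by edgeR's TMM factors, which correct library size for composition, and always in the order of wild-type replicates 1 to 4 and *Meioc*-null replicates 1 to 3. Log2 fold changes, with their standard errors (SE), set wild type over the null and come from edgeR's quasi-likelihood test, and a gene was called at a Benjamini-Hochberg adjusted p under 0.05 over the 13630 genes tested. The targeted gene *Meioc* was counted at 468, 660, 664 and 720 CPM in wild type and at 400, 300 and 413 CPM in the null, so no null library reached a wild-type library. Each library held between 12537852 and 20552702 estimated counts. By 1 measure wild-type replicate 1 lay nearer to a null library than to its own group. Its squared differences from *Meioc*-null replicate 1 were 11.2 times the counting noise, and those from the other wild-type replicates 14.5 to 25.2 times. *Meioc*-null replicate 1 likewise lay nearer to it than to null replicates 2 and 3 (26.8 and 15.1 times). By correlation of log2 CPM, wild-type replicate 1 was nearest to wild-type replicate 2 (r = 0.9859), with *Meioc*-null replicate 1 next (0.9852). Values that rest on wild-type replicate 1 are also given without it. Of the cell-type markers, the germ cell list (*Ddx4*, *Dazl*, *Tdrd1*, *Tex101*, *Sohlh1* and *Mael*) summed to between 1904 and 2093 TPM (a level corrected for transcript length) in wild-type libraries and to between 1498 and 1555 TPM in null libraries. Most of that sum was *Dazl* (means of 964 and 766 TPM) and *Tex101* (576 and 279 TPM). These and *Mael*, 3 of the 6 genes, were called higher in wild type. Not called were *Ddx4* (log2 fold change 0.24), *Sohlh1* (0.20) and, in the other direction, *Tdrd1* (-0.24). The list for undifferentiated spermatogonia summed to between 43.7 and 61.6 TPM in wild type and to between 75.6 and 128 TPM in the null, with 2 of 6 genes called lower in wild type. These were *Zbtb16* (means of 15.4 and 35.5 TPM) and *Nanos3* (14.6 and 27.9 TPM). Not called were *Ret* (log2 fold change -0.54), *Etv5* (-0.47), *Gfra1* (-0.14) and, in the other direction, *Id4* (0.15). In CPM that list summed to between 127 and 151 in wild type and between 168 and 270 in the null. The Sertoli cell list summed to between 2906 and 3420 TPM and between 3880 and 4113 TPM, with 0 of 6 called by edgeR. Most of that sum was 1 gene, *Clu* (means of 2844 and 3692 TPM). The 2 Sertoli genes at an unadjusted p under 0.05 by edgeR went opposite ways, *Gata1* higher in wild type (log2 fold change 0.37) and *Fshr* lower (-0.26). In CPM the Sertoli cell list lay closer, between 3876 and 4084 in wild type and between 4101 and 4805 in the null. Of the markers of Leydig cells, peritubular myoid cells, macrophages and endothelial cells, 1 was called, *Des* with a lower level in wild type. Genes of later spermatocytes and spermatids summed to at most 3.29 TPM in any library. The part of these cell-type differences in the values below was not tested.

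H3K9 methylation marks silent chromatin. SUV39H1 and SUV39H2 place most of the trimethyl mark at pericentromeric repeats, SETDB1 places it at retrotransposons and selected genes where TRIM28 and zinc finger proteins bring it, and EHMT1 and EHMT2 (also called GLP and G9a) work as a pair that places the mono- and dimethyl marks in euchromatin. HP1 proteins read the methylated lysine through a chromodomain and compact the chromatin. In the male germ line SUV39H and EHMT2 enzymes are required for normal passage through meiotic prophase, and EHMT enzymes and HP1 proteins have been found in complexes with the repressor E2F6.

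Of the 9 genes, all of which passed the filter on low values, 1 was called: *Suv39h1* was higher in wild type. Over all genes tested 11.1% passed, with 7.77% higher and 3.33% lower in wild type. There were 4 of the 9 genes with an unadjusted p under 0.05, namely *Suv39h1*, *Setdb1* and *Cbx1* with higher values in wild type and *Ehmt2* with lower values, where 30.3% of all genes had such a p. In CPM the genotypes were fully apart for 3 genes, *Suv39h1*, *Setdb1* and *Ehmt2*, and over all genes tested they were so for 26.2%. In TPM they were apart for 6 genes, *Suv39h1* with higher values in wild type and *Cbx5*, *Atf7ip*, *Suv39h2*, *Ehmt1* and *Ehmt2* with lower values, and the libraries of *Setdb1* overlapped. Over all 13630 genes tested 33.3% were apart in TPM, and there too most had lower values in wild type (3870 genes, against 672 with higher values). The median log2 fold change was 0.014 over the 9 genes and -0.0065 over all genes tested. The estimates lay on both sides of 0, positive for 5 genes, and the level of each gene in each library stands in the plot of levels.

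**Figure D1:**
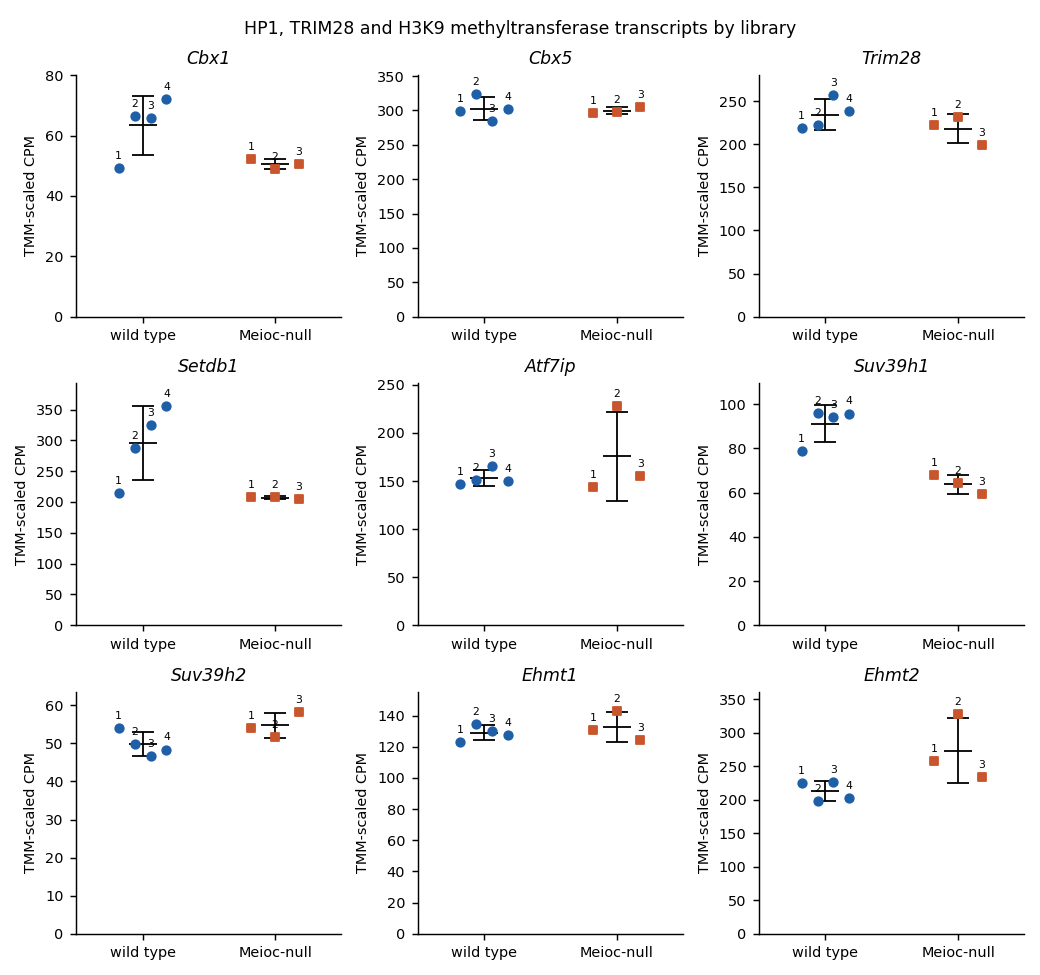
TMM-scaled CPM of the 9 genes in each library, with 1 panel per gene, wild type as circles and *Meioc*-null as squares, and the replicate number above each point. Horizontal bars are the group mean and the whiskers 1 SD (n = 4 and n = 3). *Suv39h1*, *Setdb1* and *Ehmt2* have groups that do not overlap in CPM, *Setdb1* by the small gap between 208.7 and 215.3 CPM, and wild-type replicate 1 is the lowest wild-type library for *Cbx1*, *Setdb1* and *Suv39h1*.

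The clearest difference was in the pair of SUV39H enzymes. *Suv39h1*, which lies on chromosome X from 8061171 to 8074760 on the minus strand of GRCm38, was counted at 78.8, 96.0, 94.2 and 95.8 CPM in wild type and at 67.9, 64.3 and 59.4 CPM in the null. All wild-type libraries lay above all null libraries, and wild-type replicate 1 was the lowest of its group. The means were 91.2 ± 8.30 CPM (SD, n = 4) and 63.8 ± 4.25 CPM (SD, n = 3). On the log2 scale wild type was higher by 0.51 (SE 0.094, adjusted p = 0.016 by edgeR). DESeq2 also called it. The call was lost without wild-type replicate 2 (adjusted p = 0.0514), wild-type replicate 3 (0.0527) or *Meioc*-null replicate 3 (0.068), again by edgeR, while the log2 fold change stayed between 0.47 and 0.58 over the 7 fits that each left out 1 library.

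*Suv39h2*, the paralog that is best known from the testis, was not called. It lies on chromosome 2 from 3455815 to 3475031 and was counted at 54.0, 49.97, 46.75 and 48.4 CPM in wild type and at 54.1, 51.7 and 58.3 CPM in the null. Libraries of the 2 genotypes overlapped, at a log2 fold change of -0.14 (SE 0.082, 95% interval -0.32 to 0.046). Within a library, the ratio of *Suv39h2* to *Suv39h1* in TPM needs no scaling between libraries. This ratio was 1.03, 0.704, 0.690 and 0.741 in wild type and 1.23, 1.11 and 1.39 in the null. In TPM *Suv39h1* was thus the more abundant of the pair in 3 of 4 wild-type libraries and the less abundant in all 3 null libraries. In CPM, which is not corrected for length, *Suv39h1* was the higher of the pair in every library. There the null values were 67.9, 64.3 and 59.4 CPM against 54.1, 51.7 and 58.3 CPM for *Suv39h2*. The mean log2 ratio was 0.66 lower in wild type, with a two-sided exact permutation p of 0.0571, the smallest that 4 against 3 libraries can give, and p = 0.114 when adjusted over the 4 ratios compared. Neither *Suv39h2* transcript was called, *Suv39h2-201* at a log2 fold change of -0.17 and *Suv39h2-202* at -0.11, and *Suv39h2-201* held 38.5% to 47.5% of the gene's TPM.

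Start regions are shown for *Suv39h1*, which has 2 RefSeq start sites, and for its paralog *Suv39h2*. The windows come from RefSeq on GRCm38.p6 and run from 250 bases before to 50 bases after the start, 5′ to 3′ on the gene's strand. Capitals mark matches, on either strand, to 3 motifs of factors that the study deals with: GGCGGGAA for E2F factors, CACGTG for the E-box bound by MAX and its partner MGA, and CNCCTCAG for STRA8-MEIOSIN. The first *Suv39h1* window is chrX:8074711-8075010 and the second chrX:8074312-8074611, both on the minus strand, and the *Suv39h2* window is chr2:3474937-3475236, also on the minus strand.
Suv39h1 window 1: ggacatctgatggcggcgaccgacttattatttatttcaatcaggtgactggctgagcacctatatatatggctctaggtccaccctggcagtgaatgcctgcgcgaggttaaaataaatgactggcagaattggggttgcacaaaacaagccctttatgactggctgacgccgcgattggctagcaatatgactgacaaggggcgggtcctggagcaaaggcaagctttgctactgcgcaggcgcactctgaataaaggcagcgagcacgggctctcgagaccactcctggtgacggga
Suv39h1 window 2: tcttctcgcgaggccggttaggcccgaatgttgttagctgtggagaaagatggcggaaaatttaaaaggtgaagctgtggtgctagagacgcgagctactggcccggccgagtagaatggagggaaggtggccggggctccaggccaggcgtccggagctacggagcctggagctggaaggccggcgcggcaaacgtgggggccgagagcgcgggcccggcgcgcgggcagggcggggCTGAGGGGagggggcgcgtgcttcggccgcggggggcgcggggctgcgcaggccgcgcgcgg
Suv39h2: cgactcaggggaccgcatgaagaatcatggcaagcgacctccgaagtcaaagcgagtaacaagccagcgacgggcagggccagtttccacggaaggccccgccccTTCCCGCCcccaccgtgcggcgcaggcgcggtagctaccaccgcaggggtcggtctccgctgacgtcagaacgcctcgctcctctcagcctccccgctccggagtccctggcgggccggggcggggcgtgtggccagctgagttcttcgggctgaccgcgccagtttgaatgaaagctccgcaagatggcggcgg
The windows of *Suv39h1* differ in composition, with 53.0% G and C and 15 CpG in the first and 71.0% and 37 CpG in the second. A STRA8-MEIOSIN match, read as CTGAGGGG, begins at position -12 from the second start, and the first window holds no match to the 3 motifs. In *Suv39h2* an E2F match, read as TTCCCGCC, begins at position -145 from the start. Of 32851 RefSeq windows of this length, 7.94% hold the STRA8-MEIOSIN letters and 2.19% the E2F letters, and of the 12 windows of the 9 genes each of these motifs was found in 2. For both motifs the other window was that of *Trim28*, with the STRA8-MEIOSIN match at -33 and the E2F match at -179. *Trim28* itself was not called (log2 fold change 0.10).

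The transcripts of *Suv39h1* differ in their start site. *Suv39h1-202*, which begins at 8074258, 103 bases downstream of the second RefSeq start and outside both windows shown, encodes 413 residues. It was estimated at 33.6, 34.7, 31.9 and 32.6 TPM in wild type and at 23.0, 26.6 and 22.2 TPM in the null. The libraries of each genotype lay close together and apart from the other genotype. On the log2 scale it was 0.70 higher in wild type (SE 0.070, adjusted p = 0.047 by edgeR over 21920 transcripts), and among the 22 transcripts of the 9 genes that were tested it was the only one called, where 0.0639% of all transcripts passed, 0.0547% with higher and 0.00912% with lower values in wild type. That call was lost in 6 of the 7 fits that left out 1 library, with an adjusted p up to 0.169 by edgeR, and kept without wild-type replicate 1. DESeq2 called 4 of the 22, where 11.8% of all transcripts were called (7.44% higher and 4.34% lower): *Suv39h1-202* and *Suv39h1-201* higher in wild type, and *Ehmt2-204* and *Ehmt1-210* lower.

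*Suv39h1-203* begins at 8074760, the first RefSeq start, and encodes 412 residues. It was estimated at 6.06, 7.76, 8.999 and 8.09 TPM in wild type and at 12.7, 11.0 and 9.31 TPM in the null. Its share of the gene's TPM was 14.1% to 19.7% in wild type and 26.8% to 33.3% in the null, while that of *Suv39h1-202* was 69.5% to 78.1% and 60.2% to 67.2%, so neither share overlapped between genotypes. Both shares are parts of the same total, so they are not separate observations. The share of *Ehmt1-210* in its gene was apart too, at 2.78% to 4.97% in wild type and 6.06% to 7.78% in the null. How often shares were apart over all transcripts was not counted, so how unusual this is cannot be said. The fitted difference of *Suv39h1-203* itself was -0.29 (log2, SE 0.20, adjusted p = 0.54 by edgeR). Only 5.13% of the 31-base words of *Suv39h1-202* and 9.56% of those of *Suv39h1-203* occur in no other transcript of the gene, so few reads can tell them apart. The third transcript, *Suv39h1-201*, held 4.59% to 13.3% of the gene's TPM.

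**Figure D2:**
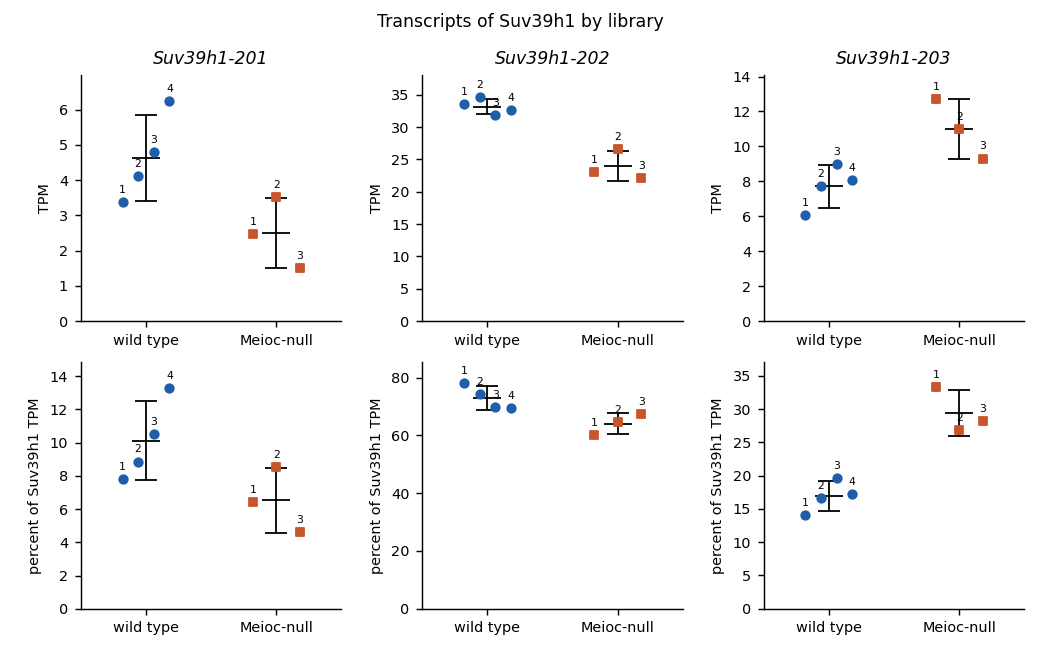
The 3 transcripts of *Suv39h1* in each library, as TPM in the upper row and as percent of the gene's TPM in the lower row. Circles are wild type and squares *Meioc*-null, with the replicate number above each point, the mean as a bar and 1 SD as whiskers (n = 4 and n = 3). *Suv39h1-202* lies between 31.9 and 34.7 TPM in wild type and between 22.2 and 26.6 TPM in the null, and the share of *Suv39h1-203* is higher in all 3 null libraries.

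Of *Setdb1*, *Trim28* and *Atf7ip*, none passed the test with edgeR, and *Setdb1* came closest, the only one of the 3 at an unadjusted p under 0.05. *Setdb1*, on chromosome 3 from 95323525 to 95357202, was counted at 215.3, 287.9, 324.4 and 355.8 CPM in wild type and at 208.3, 208.7 and 204.8 CPM in the null. The null libraries were nearly equal, wild-type replicate 1 lay just above them and the other wild-type libraries stood well above. The difference of 0.51 (log2, SE 0.15, 95% interval 0.19 to 0.84) missed the threshold with an adjusted p of 0.0518 by edgeR. DESeq2, which called 10.7% of all genes higher and 6.42% lower in wild type, called it (0.50, adjusted p = 0.0094), and so did edgeR without wild-type replicate 1 (0.64, adjusted p = 0.0030). Another locus, *Gm4349*, shares 7.70% of the 31-base words of *Setdb1*, so a small part of its reads could belong to either. Its main transcript, *Setdb1-201*, held 59.3% to 87.4% of the gene's TPM in wild type and 77.7% to 82.8% in the null, and its log2 fold change of 0.45 was not called by edgeR (adjusted p = 0.47).

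*Trim28*, whose product recruits SETDB1 to sites bound by KRAB zinc finger proteins, lies on chromosome 7 from 12999114 to 13031035. It was counted at 218.7, 222.5, 257.1 and 239.0 CPM in wild type and at 222.5, 232.0 and 199.5 CPM in the null. Neither genotype stood apart, at a log2 fold change of 0.10 (95% interval -0.09 to 0.30). *Atf7ip*, whose product holds SETDB1 in the nucleus and stabilizes it, lies on chromosome 6 from 136506167 to 136610862. It was counted at 146.9, 151.0, 165.5 and 150.0 CPM in wild type and at 143.4, 228.3 and 155.3 CPM in the null. *Meioc*-null replicate 2 stood above every other library, and the log2 fold change of -0.19 (95% interval -0.52 to 0.13) became 0.039 without it. The ratio of *Setdb1* to *Trim28* in TPM was 0.901, 1.23, 1.14 and 1.35 in wild type and 0.857, 0.831 and 0.958 in the null. Wild-type replicate 1 fell among the null libraries, and the mean log2 ratio was 0.38 higher in wild type (two-sided exact permutation p = 0.114, adjusted p = 0.152), and 0.49 higher without that library (exact permutation p = 0.1, the smallest that 3 against 3 can give).

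In CPM, *Ehmt2* was the only one of the 9 genes with lower levels in wild type and no overlap. It lies on chromosome 17 from 34898469 to 34914052 and was counted at 225.5, 197.3, 226.0 and 203.2 CPM in wild type and at 257.9, 327.9 and 233.8 CPM in the null. Each null library lay above each wild-type library, and replicate 2 was the highest of the null. The difference was -0.36 (log2, SE 0.12, 95% interval -0.62 to -0.10, adjusted p = 0.073 by edgeR), and DESeq2 called it at -0.37 (adjusted p = 0.025). Without *Meioc*-null replicate 2 it was -0.21 (adjusted p = 0.191 by edgeR).

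*Ehmt1*, on chromosome 2 from 24789928 to 24919614, encodes the partner of EHMT2. It was counted at 123.0, 134.5, 130.5 and 127.9 CPM in wild type and at 130.6, 143.0 and 124.3 CPM in the null. The genotypes overlapped, at a log2 fold change of -0.04 (SE 0.077, 95% interval -0.21 to 0.13), or 0.017 without *Meioc*-null replicate 2. The ratio of *Ehmt1* to *Ehmt2* in TPM was 0.578, 0.733, 0.601 and 0.690 in wild type and 0.555, 0.475 and 0.566 in the null. *Ehmt2* was the more abundant in all 7 libraries, and more so in each null library than in any wild-type library. The mean log2 ratio was 0.29 higher in wild type (two-sided exact permutation p = 0.0571, the smallest possible, adjusted p = 0.114). Of its transcripts, *Ehmt1-203* held 29.2% to 46.3% of the gene's TPM and *Ehmt1-204* 34.2% to 58.8%, at log2 fold changes of 0.19 and 0.20 that were not called. *Atf7ip* and *Trim28* each have 1 transcript in the tables, *Atf7ip-201* and *Trim28-201*.

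The first start window of *Ehmt2* is shown because it holds an E-box at 2 places. It is chr17:34898224-34898523 on the plus strand of GRCm38.p6 from RefSeq, with the E-box in capitals.
Ehmt2 window 1: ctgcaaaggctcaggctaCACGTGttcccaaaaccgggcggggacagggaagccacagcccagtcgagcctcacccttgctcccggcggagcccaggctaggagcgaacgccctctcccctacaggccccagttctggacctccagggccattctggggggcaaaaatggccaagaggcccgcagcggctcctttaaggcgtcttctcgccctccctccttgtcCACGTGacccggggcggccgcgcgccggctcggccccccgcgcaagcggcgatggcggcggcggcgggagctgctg
The matches begin at positions -232 and -26 from the start, and the second window of the gene holds 1 more at -236 from its own start. The E-box is the same on both strands and was found in 7.15% of all 32851 windows, and in 3 of the 12 windows of the 9 genes, the other being that of *Cbx5*. The 12 windows held 52.7% to 82.7% G and C and 8 to 40 CpG, against medians of 52.7% and 7 over all windows. *Ehmt2-201*, *Ehmt2-202* and *Ehmt2-204* each held at least 20% of the gene's TPM in at least 1 genotype, and none was called by edgeR (log2 fold changes of -0.022 and -0.14 for the first and the second). Among them *Ehmt2-204* was estimated at 10.4, 12.2, 11.9 and 19.4 TPM in wild type and at 21.4, 45.2 and 25.2 TPM in the null (log2 fold change -0.93, adjusted p = 0.19 by edgeR and 0.0163 by DESeq2). Under 1% of its 31-base words occur in no other *Ehmt2* transcript, namely 0.779%.

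The HP1 genes did not pass the test. *Cbx1*, which encodes HP1β and has also been listed among the subunits of the E2F6 complex PRC1.6, lies on chromosome 11 from 96789127 to 96808640. It was counted at 49.4, 66.3, 65.7 and 72.0 CPM in wild type and at 52.1, 49.1 and 50.5 CPM in the null. Wild-type replicate 1 fell among the null libraries and the other wild-type libraries lay above them. The difference was 0.33 (log2, SE 0.12, 95% interval 0.057 to 0.595, adjusted p = 0.104 by edgeR). Without wild-type replicate 1 it was 0.43 and was called (adjusted p = 0.0094 by edgeR), together with *Setdb1* and *Suv39h1*, so 3 of 9 genes were then called beside 15.9% of all genes. Its main transcript, *Cbx1-203*, held 85.3% to 90.6% of the gene's TPM and was not called (log2 fold change 0.35, adjusted p = 0.30 by edgeR). The paper reports *Cbx1* as a target of MEIOC, YTHDC2 and RBM46. In its single-cell data MEIOC lowered *Cbx1* in clusters within the span from late spermatogonia to early preleptotene cells. The whole-testis estimate here went the other way, in a different mix of cells, and the reason was not tested.

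*Cbx5*, which encodes HP1α, lies on chromosome 15 from 103191544 to 103239816. It was counted at 298.8, 324.1, 284.6 and 302.3 CPM in wild type and at 296.1, 297.6 and 305.2 CPM in the null. The genotypes overlapped, at a log2 fold change of 0.014 (SE 0.071), and the 95% interval of -0.15 to 0.17 was the narrowest of the 9 genes. Its 3 transcripts, which all encode 191 residues, each held 28.8% to 41.4% of the gene's TPM, with log2 fold changes of 0.015 (*Cbx5-201*), -0.026 (*Cbx5-202*) and 0.10 (*Cbx5-203*). The ratio of *Cbx1* to *Cbx5* in TPM was 0.787, 1.01, 1.01 and 1.11 in wild type and 0.822, 0.764 and 0.804 in the null. The groups overlapped through wild-type replicate 1, and the mean log2 ratio was 0.29 higher in wild type (two-sided exact permutation p = 0.171, adjusted p = 0.171), and 0.39 higher without it (exact permutation p = 0.1).

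**Figure D3:**
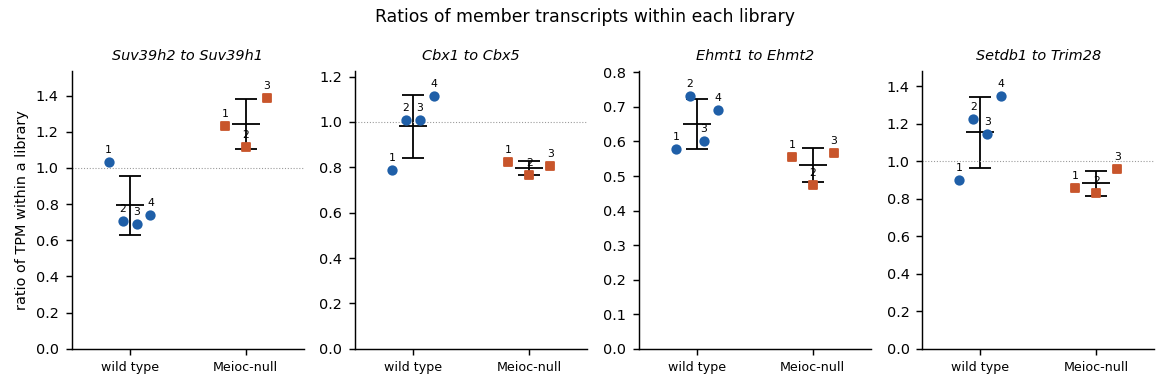
Ratio of TPM within each library for *Suv39h2* to *Suv39h1*, *Cbx1* to *Cbx5*, *Ehmt1* to *Ehmt2* and *Setdb1* to *Trim28*, on linear axes, with circles for wild type, squares for *Meioc*-null, group means as bars and 1 SD as whiskers (n = 4 and n = 3). The dotted line marks equal TPM. Only the panels of *Suv39h2* to *Suv39h1* and *Ehmt1* to *Ehmt2* have groups that do not overlap.

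**Figure D4:**
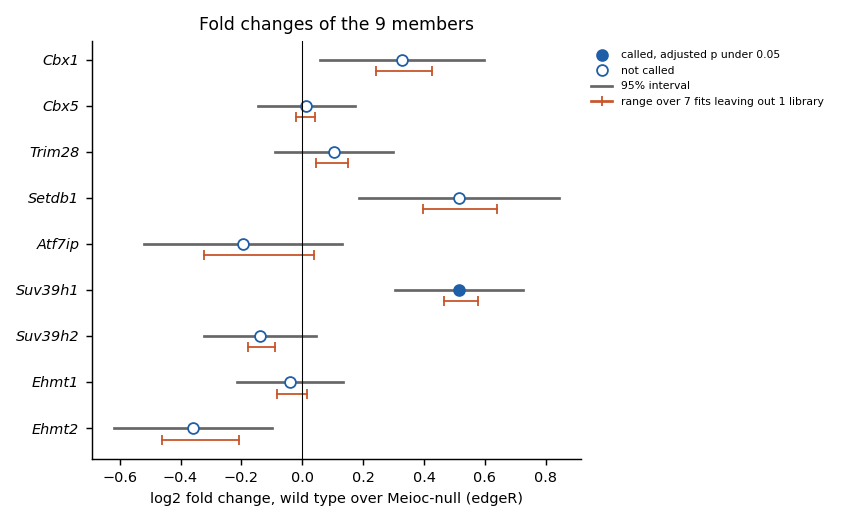
Log2 fold change of the 9 genes, wild type over *Meioc*-null, from edgeR, with the 95% interval as a grey line and, below it, the range over the 7 fits that each left out 1 library. The filled point marks *Suv39h1*, the gene called, at 0.51. The ranges of *Cbx5*, *Atf7ip* and *Ehmt1* cross 0.

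Compared per length, in mean TPM, the HP1 genes were the most abundant of the 9 in both genotypes. In wild type the order was *Cbx5* (109 TPM), *Cbx1* (106 TPM), *Setdb1* (84.8 TPM), *Trim28* (73.7 TPM), *Ehmt2* (56.0 TPM), *Suv39h1* (45.5 TPM), *Ehmt1* (36.1 TPM), *Suv39h2* (35.9 TPM) and *Atf7ip* (27.2 TPM). Neighbours overlapped between libraries for *Cbx5* and *Cbx1*, *Cbx1* and *Setdb1*, *Setdb1* and *Trim28*, and *Ehmt1* and *Suv39h2*, and were separate otherwise. In the null *Setdb1* (70.9 TPM) came behind *Ehmt2* (85.1 TPM) and *Trim28* (81.0 TPM), and *Suv39h1* (37.5 TPM) behind *Suv39h2* (46.2 TPM) and *Ehmt1* (44.5 TPM). There only *Cbx5* and *Cbx1*, and *Setdb1* and its next neighbour *Suv39h2*, were separate. In TPM the median log2 fold change of all genes was shifted to -0.23, so differences in TPM between genotypes carry that shift. On log2(TPM + 1), *Suv39h1* had a log2 fold change of 0.28 that limma did not call (adjusted p = 0.0705), or 0.51 relative to that median, and *Ehmt2* one of -0.57 that was called (adjusted p = 0.0368), or -0.35 relative to it. The share of all calls that were higher in wild type was 70.0% by TMM, 47.3% without TMM factors and 17.4% on log2(TPM + 1).

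Of 38 other genes of H3K9 methylation and HP1 chromatin, 37 passed the filter and 5 were called by edgeR, 4 higher in wild type and 1 lower, beside the 11.1% of all genes given above. Their median log2 fold change was 0.044. *Setdb2*, a further H3K9 methyltransferase, was counted at 91.4, 127.4, 142.3 and 147.8 CPM in wild type and at 72.5, 57.2 and 67.8 CPM in the null. No libraries overlapped, and the difference was 0.95 (log2, SE 0.16, adjusted p = 0.013 by edgeR), and the call was lost only without *Meioc*-null replicate 3 (adjusted p = 0.0581 by edgeR) among the 7 fits that left out 1 library. The other 3 methyltransferase genes listed with it, *Prdm2*, *Mecom* and *Prdm16*, were not called.

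Of 6 partners of the methyltransferases 2 were called, *Atf7ip2* and *Morc2a*, and of 4 other chromodomain readers 1, *Mphosph8*, all higher in wild type. *Atf7ip2*, the germ-cell paralog of *Atf7ip*, was counted at 38.4, 51.2, 73.2 and 80.2 CPM in wild type and at 32.6, 32.5 and 28.0 CPM in the null (0.97 on the log2 scale, SE 0.23, adjusted p = 0.027 by edgeR). *Mphosph8*, a chromodomain reader in the silencing complex HUSH, was counted at 216.8, 319.8, 335.9 and 386.1 CPM and at 184.9, 155.1 and 200.3 CPM (0.81, SE 0.18, adjusted p = 0.023 by edgeR). *Morc2a*, an ATPase that works with HUSH, was counted at 181.9, 214.8, 251.0 and 245.5 CPM and at 155.3, 163.7 and 147.2 CPM (0.52, SE 0.11, adjusted p = 0.023 by edgeR). In all of these the lowest wild-type library was replicate 1 and no libraries overlapped between genotypes. Each of these calls was kept in 2 of the 7 fits that left out 1 library, those without wild-type replicate 1 or *Meioc*-null replicate 1, and lost in the others, with an adjusted p by edgeR up to 0.0985 for *Atf7ip2*, 0.0779 for *Mphosph8* and 0.0872 for *Morc2a*. Without wild-type replicate 1 the log2 fold changes of *Atf7ip2*, *Mphosph8* and *Morc2a* were 1.14, 0.95 and 0.61. The other HUSH genes, *Fam208a* (0.22) and *Pphln1* (0.33), were not called by edgeR over all libraries. *Pphln1* was called by DESeq2 (adjusted p = 0.0286) and by edgeR without wild-type replicate 1 (0.40, adjusted p = 0.0156). Its groups did not overlap in CPM, with 91.3 CPM as the lowest wild-type value and 88.4 CPM as the highest null value. Nor were *Wiz* (-0.13) and *Zfp644* (-0.15), partners of the EHMT enzymes, called, or the readers *Cbx3* (-0.11), *Cdyl* (-0.0058) and *Cdyl2* (-0.028).

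Among 10 partners and effectors of HP1, 1 was called, *Atrx*, lower in wild type. The estimates of 8 of the 10 were positive, with a median of 0.17, beside 6694 of all 13630 genes. By edgeR 6 had an unadjusted p under 0.05, *Kmt5c*, *Chaf1a*, *Chaf1b* and *Lbr* with higher values in wild type and *Atrx* and *Pogz* with lower values. Such a p was found for 30.3% of all genes and 14 of the 37 pathway genes. Without wild-type replicate 1 edgeR also called *Kmt5c* (0.58, adjusted p = 0.0158) and *Chaf1b* (0.49, adjusted p = 0.0342). Besides *Atrx*, DESeq2 called *Kmt5c* (adjusted p = 0.0434) and *Pogz* (0.0210). *Atrx*, a chromatin remodeller on chromosome X that deposits histone H3.3 in heterochromatin together with DAXX, was counted at 388.5, 391.2, 326.6 and 338.6 CPM in wild type and at 406.5, 509.6 and 533.7 CPM in the null. The groups were apart by the gap between 391.2 and 406.5 CPM, at -0.42 on the log2 scale (SE 0.11, adjusted p = 0.040 by edgeR), and the call was kept in the same 2 of 7 fits (adjusted p up to 0.135 by edgeR in the others). None of the 11 H3K9 demethylase genes was called by edgeR, with 1 at an unadjusted p under 0.05 beside the 30.3% of all genes, and their log2 fold changes ran from -0.14 (*Phf2*) to 0.46 (*Kdm4d*). The TRIM28 paralogs *Trim24* (-0.13) and *Trim33* (-0.11) were not called either, and *Trim66* was below the filter on low values at 1.07 to 2.75 CPM.

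**Figure D5:**
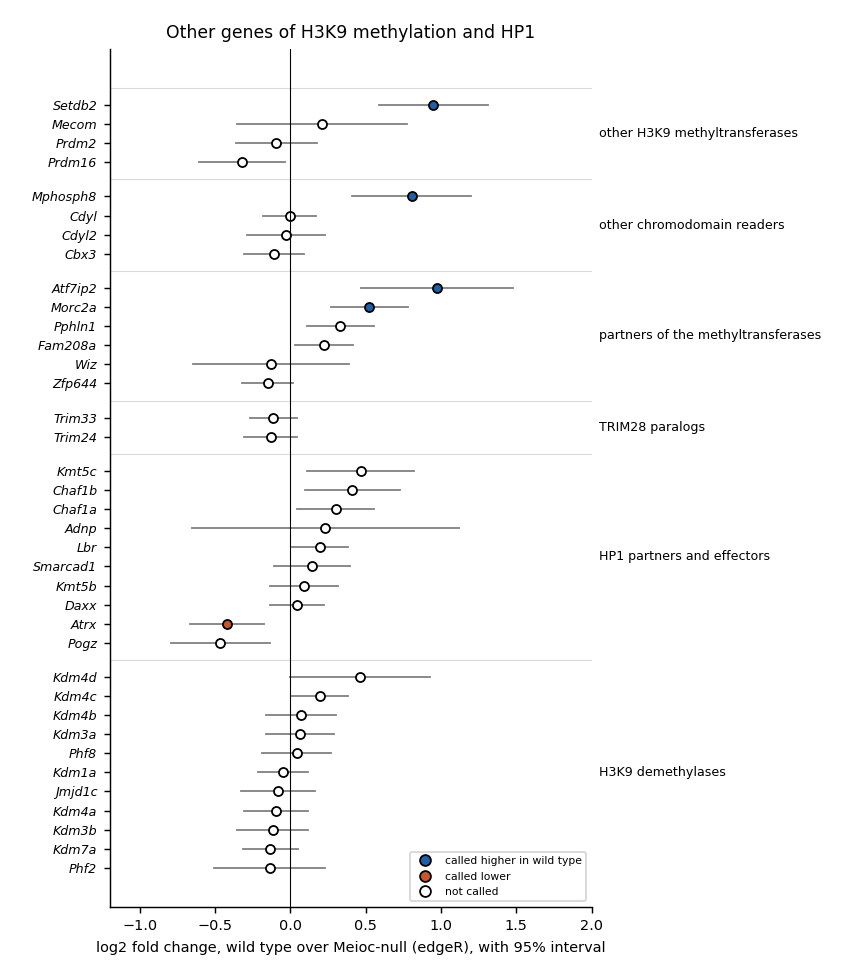
Log2 fold change, wild type over *Meioc*-null, of the 37 tested genes of H3K9 methylation and HP1 chromatin other than the 9, grouped by role, with the 95% interval as a line (edgeR). Blue points were called higher in wild type (*Setdb2*, *Mphosph8*, *Atf7ip2* and *Morc2a*), the orange point lower (*Atrx*), and white points were not called. The demethylases lie between -0.14 and 0.46.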

How the data were processed

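RNA of 4 wild-type and 3 *Meioc*-null testis samples was depleted of ribosomal RNA and sequenced as stranded 50-base single-end reads, and samples were grouped by the genotype in their labels. The authors trimmed reads with cutadapt 1.8 and ran kallisto 0.44.0 on GENCODE Basic vM15 transcripts (mm10). The deposited tables hold estimated counts and TPM per protein-coding transcript, and the authors rescaled the TPM over these transcripts.

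From these, 43020 of 43139 transcripts were matched to GENCODE vM21 (GRCm38) genes, and the others held 0.247% to 0.282% of the counts. Estimated counts were summed by gene, rounded, and tested with edgeR 4.0.16 (R 4.3.3, TMM, no covariates) for genes that reached 1 TPM in 3 or more of the 7 samples. Standard errors were derived from edgeR's F values. Alternatives were DESeq2 1.42.0, limma 3.58.1 on log2(TPM + 1) and log2(TPM + 0.1), other scaling and filters, each library left out, and a replicate block. TPM relative to the median gene was added after seeing the data. The fits were tested on simulated data.

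The 9 genes and the lists were chosen with earlier results of these data known. Named are all 9 genes, *Meioc*, the other pathway genes called, the highest and lowest of each role with none called, and transcripts with at least 20% of their gene's TPM. *Suv39h1-201*, *Ehmt1-201*, *Ehmt1-210*, *Cbx3*, *Cdyl*, *Cdyl2*, *Wiz*, *Zfp644*, *Prdm2*, *Mecom*, *Prdm16*, *Fam208a*, *Pphln1*, *Kmt5c*, *Chaf1a*, *Chaf1b*, *Lbr*, *Pogz*, *Trim66*, the markers of undifferentiated spermatogonia and the Sertoli cell markers *Clu*, *Gata1* and *Fshr* fall outside this rule and were named after their values were seen. Depth was 12537852 to 20552702 estimated counts per library, where 3 counts are 0.146 to 0.239 CPM, which covers counting error only. The closest pair of libraries, wild-type replicates 2 and 3, still differed by 7.91 times the counting noise. Same-numbered libraries did not deviate together, so numbers were not taken as pairs.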

Additional observations from a re-analysis of the deposited data

Results flagged for a closer look

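Of 29 sets of 4 wild-type values checked for a sample far from the others, 2 stood out, and chance alone gives about 1 in 20. For *Suv39h1* in wild type, replicate 1 (78.8 CPM) was separated from the other 3 (94.2 to 96.0 CPM) by a gap of 0.896 of the whole range. For the ratio of *Suv39h2* to *Suv39h1* in wild type, the same library (1.03) was separated from the others (0.690 to 0.741) by 0.852 of the range. Without wild-type replicate 1, *Suv39h1* differed by 0.58 (log2, adjusted p = 0.0026 by edgeR), and the mean log2 ratio was 0.80 lower in wild type, a value of -0.80.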

How the results depend on the processing

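The 4 ratios and the fold changes of *Suv39h1*, *Suv39h2*, *Setdb1*, *Cbx1* and *Ehmt2* kept their direction in every alternative run. The number of the 9 genes called was 1 by edgeR, 3 by DESeq2, 2 with no scaling and 0 to 3 when 1 library was left out (3 without wild-type replicate 1, and 0 without *Meioc*-null replicate 3 and without wild-type replicate 2 or 3). All genes called numbered 2331 by DESeq2, 2522 on log2(TPM + 1), 2506 on log2(TPM + 0.1) and 131 to 2172 with 1 library left out, lowest without *Meioc*-null replicate 3. Of the 38 pathway genes, 8 were called by DESeq2, 9 on log2(TPM + 1), 9 on log2(TPM + 0.1) and 0 to 8 with 1 library left out, where the fits without wild-type replicates 2, 3 or 4 or *Meioc*-null replicates 2 or 3 called at most 1. Of the transcripts, 4 were called by DESeq2, 0 with no filter and 0 to 1 with 1 library left out.

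*Suv39h1* was not called on log2(TPM + 1) (0.28, adjusted p = 0.0705 by limma) or log2(TPM + 0.1) (0.29, 0.0711). *Ehmt2* was called lower with no scaling (-0.44, adjusted p = 0.0427 by edgeR) and on log2(TPM + 0.1) (-0.58, 0.0384 by limma). *Cbx5* changed sign with no scaling (-0.064), on log2(TPM + 1) and log2(TPM + 0.1) (both -0.21), with a minimum of 5 TPM (-0.021), without wild-type replicate 2 (-0.021) and without replicate 4 (-0.0026), in a range up to 0.042 with 1 library left out. *Trim28* did so on both TPM scales (both -0.13), and *Atf7ip* (0.039, lowest -0.32 with another library left out) and *Ehmt1* (0.017, lowest -0.085) without *Meioc*-null replicate 2. Relative to the median gene, *Cbx5* was at 0.016 and *Trim28* at 0.099 on log2(TPM + 1). The cause of these changes was not tested.

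With the replicate number as a block, edgeR called 0 of the 9 genes, 0 pathway genes, 0 transcripts and 109 genes in all, and *Suv39h1* differed by 0.49 (log2, adjusted p = 0.112). The correlations of same-numbered libraries were -0.044, -0.097 and -0.21, so they share only a number.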
